A study of Mus musculus with 28 samples.

Results

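Embryonic stem (ES) cells of mouse strain 129SvEv that lacked topoisomerase IIβ (Top2β) were compared with wild-type ES cells, over all genes measured. The comparison held 4 arrays, 2 wild type and 2 knockout, of the 28 arrays of the series, and its members were the arrays titled as wild-type and knockout ES cells. Total RNA of undifferentiated cells was labelled and hybridised to Affymetrix whole-transcript arrays; the other arrays held neuronal progenitor (NP) cells, later stages called TN day 2 and TN day 6, and neurons given DMSO or ICRF-193. No ES array was labelled with a drug, although a single treatment text stands on all samples of the series. The labels do not give the knockout allele, the number of clones or whether replicates were separate cultures, so p-values measured only the spread between arrays, which may be technical.

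Topoisomerase II enzymes pass a DNA helix through a transient double-strand break in another and so relax supercoils and untangle chromosomes. Mammals have an α form, encoded by Top2a and needed in dividing cells, and a β form, encoded by Top2b, which is also made in non-dividing cells and has been linked to transcription of neuronal genes. Mouse ES cells are self-renewing cells held in a pluripotent state by factors such as Oct4 (Pou5f1), Sox2 and Nanog, and they express the microRNAs of the miR-302 cluster, which act on cell cycle and differentiation genes.

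All 5 hairpins of the miR-302 cluster, Mir302a to Mir302d and Mir367, were among the genes lower in each knockout array, so their sequences are shown before the values. RefSeq places them within 580 bases on the plus strand of chromosome 3 (GRCm38.p6, chr3:127545228-127545807), inside the span of Larp7, which is read from the opposite strand. The mature 3′ arms are given 5′ to 3′ with the seed, bases 2 to 8, in capitals. The RefSeq table held the 5′ arm but no 3′ arm for miR-302a, so its 69-base hairpin is given, with capitals marking the 16 bases found in all 4 miR-302 hairpins.
mmu-miR-302b-3p: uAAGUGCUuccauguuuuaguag
mmu-miR-302c-3p: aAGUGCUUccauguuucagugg
mmu-miR-302d-3p: uAAGUGCUuccauguuugagugu
mmu-miR-367-3p: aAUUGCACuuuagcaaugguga
Mir302a hairpin: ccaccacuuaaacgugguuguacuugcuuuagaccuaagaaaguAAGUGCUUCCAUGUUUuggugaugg
The seed of miR-302b-3p and miR-302d-3p, AAGUGCU, was shared by 5 of 1738 mature sequences in the table. As listed there, miR-302c-3p begins 1 base later on the same run, which moves its seed to AGUGCUU. The seed of miR-367-3p, AUUGCAC, was shared by 7 mature sequences. The arrays measured RNA at the hairpin loci, not the mature microRNAs.

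The 2 knockout arrays were unlike each other. Over 19938 genes the wild-type pair correlated at 0.997, and the lowest and highest correlations within the 11 groups other than knockout ES cells were 0.990 and 0.997. The 2 knockout arrays correlated at 0.967. Knockout array 1 was the one that stood apart, since it correlated with the wild-type arrays at 0.971 and 0.972, whereas knockout array 2 correlated with them at 0.995 and 0.996. Only 4 genes lay 2-fold or more apart between the wild-type arrays, and 38 and 20 genes between a wild-type array and knockout array 2. Between a wild-type array and knockout array 1 the numbers were 1305 and 1230, and between the knockout arrays 1406. Each result below is therefore given for both knockout arrays taken alone.

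Top2b was lower in both knockout arrays, by unequal amounts. Its log2 expression value was 7.96 and 7.52 in wild-type arrays 1 and 2, 7.11 in knockout array 1 and 5.79 in knockout array 2. Both knockout values lay below both wild-type values, but knockout array 1 lay only 0.63 ± 0.15 (SE of the model) below the wild-type mean (adjusted p = 0.00353), against 1.95 ± 0.15 in knockout array 2 (adjusted p = 5.27e-07). Without wild-type replicate 1 the fall in array 1 was 0.41 and did not pass the test (adjusted p = 0.062), while that in array 2 was 1.74 (adjusted p = 7.37e-06). The difference between the knockout arrays was 1.33 on the log2 scale (adjusted p = 8.11e-06). The knockout minus wild-type difference of Top2b was -2.31, -2.41 and -2.31 at the NP, TN day 2 and TN day 6 stages. The files do not say which exons were removed or where the probe set binds, so Top2b checks the labels only in part. Its paralog Top2a was at 10.30 and 10.15 in wild type, and at 9.86 and 10.13 in the knockout arrays, and was not called in either.

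With both knockout arrays averaged, 70 of 19938 genes passed the threshold of an adjusted p under 0.05 (0.351%), 17 higher (0.0853%) and 53 lower (0.266%), and 19 of them changed 2-fold or more (0.0953%). Taken alone against the same wild-type pair, knockout array 1 gave 5018 calls (25.2%), 2817 higher (14.1%) and 2201 lower (11%), with 1225 of 2-fold or more (6.14%). Knockout array 2 gave 59 calls (0.296%), 3 higher (0.015%) and 56 lower (0.281%), with 21 of 2-fold or more (0.105%), all lower. Called in both arrays in the same direction were 26 genes (0.13%), 25 lower (0.125%) and 1 higher (0.00502%). These shares are over all genes tested. All 26 were among the 70 calls of the averaged comparison, and the other 44 of those were called in knockout array 1 alone and not in array 2. The 2 single-array contrasts share the wild-type arrays, so an error in the wild-type mean moves both the same way.

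Which wild-type array served as the control changed several of these counts. Without wild-type replicate 1 the averaged comparison gave 5 calls, knockout array 2 gave 13, and 10 genes were called in both. Without wild-type replicate 2 those counts were 32, 39 and 25. When each knockout array was set against a wild-type array of its own, so that no array was shared, 9 genes were called in both with arrays paired by number and 16 with the pairing crossed. A set of 8 genes was called in both arrays under both pairings: Psors1c2, Snord118, Nxf3, Ephx3, Actc1, Mir302b, Mir302c and Mir367. With 2 arrays against 2, an exact permutation test could not go below p = 0.333.

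**Figure D1:**
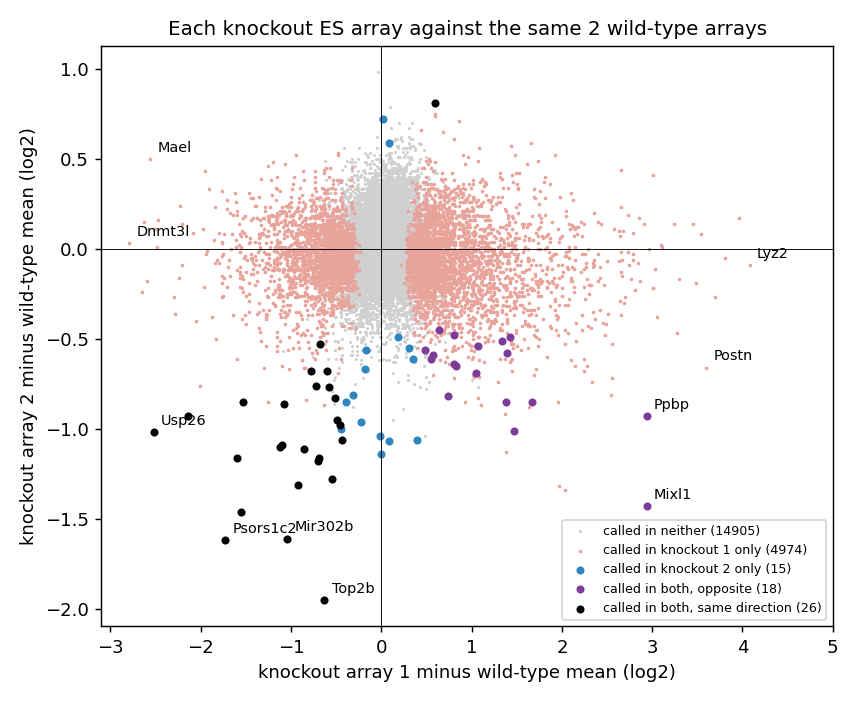
Each point is 1 of 19938 genes, with its difference from the wild-type mean in knockout array 1 on the horizontal axis and in knockout array 2 on the vertical axis, both log2; colours mark the genes called in either array alone. The cloud is wide along array 1 and narrow along array 2, with 26 genes called in the same direction in both and 18 called in opposite directions; both axes share the same 2 wild-type arrays.

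The 5 hairpin genes of the miR-302 cluster were lower in both knockout arrays. Mir302b was at 7.45 and 6.68 in wild-type arrays and at 6.02 and 5.46 in knockout arrays 1 and 2, a fall of 1.04 ± 0.21 and of 1.61 ± 0.21 (adjusted p = 6.46e-04 and 6.52e-04). Mir302c was at 8.40 and 8.24 in wild type and at 7.46 and 7.21 in knockout, a fall of 0.86 ± 0.15 and of 1.11 ± 0.15 (adjusted p = 2.02e-04 and 9.87e-04). For both hairpins, the knockout arrays lay below both wild-type arrays, and array 2 lay lowest.

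Mir367 was at 6.28 and 6.13 in wild type and at 5.65 and 4.92 in knockout, a fall of 0.55 ± 0.11 and of 1.28 ± 0.11 (adjusted p = 6.18e-04 and 1.66e-06). Mir302a was at 8.07 and 7.68 in wild type and at 7.41 and 6.89 in knockout, a fall of 0.46 ± 0.16 and of 0.98 ± 0.16 (adjusted p = 0.0403 and 0.00719). Mir302d was at 7.50 and 7.44 in wild type and at 6.97 and 6.52 in knockout, a fall of 0.49 ± 0.17 and of 0.95 ± 0.17 (adjusted p = 0.0331 and 0.0122). In all 5 hairpins the fall was larger in knockout array 2, the array that otherwise lay close to wild type. The difference between the knockout arrays was called for Mir302a and Mir367, but not for Mir302b, Mir302c and Mir302d. The hairpins lie within 580 bases of each other, so they are not independent observations. Without wild-type replicate 1, Mir302a and Mir302d lost their calls in array 1 (adjusted p = 0.336 and 0.116) and in array 2 (adjusted p = 0.137 and 0.138). Without wild-type replicate 2, Mir302d lost its call in array 1 (adjusted p = 0.0676). In a fit of the 4 ES arrays alone, the 4 miR-302 hairpins did not pass the test in array 2, with adjusted p from 0.0724 to 0.21, and neither did Mir302a in array 1 (adjusted p = 0.0989). Larp7, a stabiliser of the 7SK small nuclear RNA, was at 9.31 and 9.24 in wild type and at 9.12 and 9.09 in knockout and was not called in either array (adjusted p = 0.426 and 0.823).

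Of 297 microRNA genes measured, 5 were called lower and 0 higher in knockout array 2, where 0.281% of all genes were lower, and those 5 were the cluster. The median difference of the 297 in that array was 0.09, against 0.00 over all genes. In knockout array 1, 31 microRNA genes were lower (10.4%), near the 11% of all genes, and 4 were higher (1.35%, against 14.1%). Mir363 was at 7.57 and 7.29 in wild type, at 5.73 in knockout array 1 (adjusted p = 1.65e-06) and at 7.33 in knockout array 2 (adjusted p = 0.958). Mir145a, a microRNA of smooth muscle, was the microRNA gene that rose most in array 1, from 4.90 and 4.69 to 6.55. These names, other than the miR-302 cluster, were chosen after their values were seen.

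**Figure D2:**
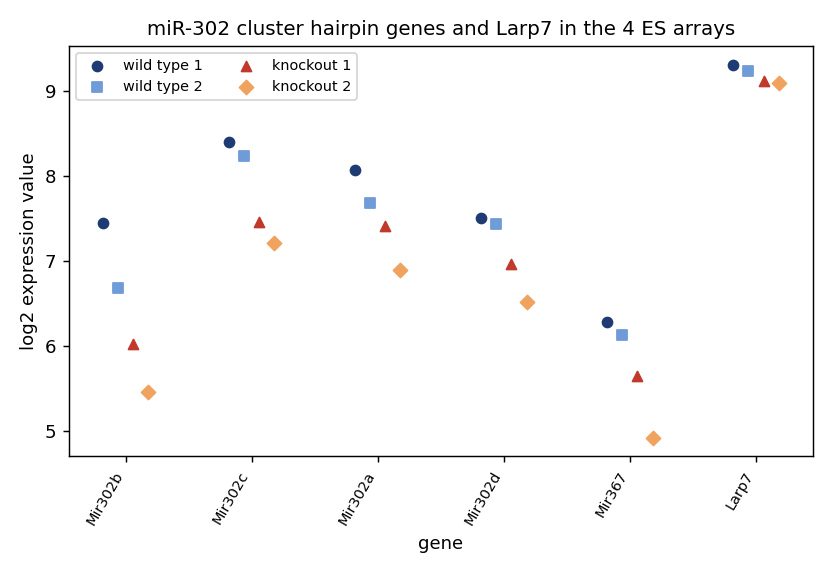
Log2 expression values of the 5 miR-302 hairpin genes and of Larp7 in each of the 4 ES arrays, with circles and squares for wild type and triangles and diamonds for knockout. In each hairpin both knockout arrays lie below both wild-type arrays and array 2 lies lowest, while Larp7 spans only 9.09 to 9.31.

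Ranked by the smaller of its 2 falls, Psors1c2, a gene of the psoriasis susceptibility region, came first among the genes lower in both arrays. It was at 7.65 and 7.73 in wild type and at 5.96 and 6.07 in knockout, a fall of 1.73 ± 0.17 in array 1 and of 1.62 ± 0.17 in array 2 (adjusted p = 1.55e-07 and 3.69e-05). Snord118, the U8 small nucleolar RNA that acts in ribosomal RNA processing, was at 8.12 and 8.0 in wild type and at 6.52 and 6.61 in knockout (adjusted p = 9.92e-06 and 0.00169). In both genes the knockout arrays lay within 0.11 of each other, and the difference between the knockout arrays was not called (adjusted p = 0.757 and 0.853). Tmem107, the neighbour of Snord118, was at 6.90 and 6.92 in wild type and at 6.71 and 6.64 in knockout and was not called in either array.

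Several of the shared genes are known from germ cells, a grouping made after their values were seen. In array 2 a list of 36 other germline genes, without Psors1c2, Nxf3 and Usp26, had a median difference of 0.04. In array 1, Nxf3, Nlrp9b and Tcp11x2 were dim, at 3.84 or below. Nxf3, an mRNA export factor family member encoded on the X chromosome and made in testis, was at 5.43 and 5.37 in wild type and at 3.80 and 4.24 in knockout (adjusted p = 1.35e-07 and 8.47e-04). Usp26, an X-linked ubiquitin protease of testis, was at 7.09 and 7.19 in wild type and at 4.62 and 6.12 in knockout, a fall of 2.52 ± 0.17 and of 1.02 ± 0.17 (adjusted p = 1.16e-09 and 0.00832). Nlrp9b, an oocyte member of the NLR family, was at 6.19 and 5.69 in wild type and at 3.80 and 5.01 in knockout (adjusted p = 2.87e-09 and 0.00789). Tcp11x2, an X-linked testis gene, was at 5.44 and 5.29 in wild type and at 3.84 and 4.51 in knockout (adjusted p = 2.45e-07 and 0.016). For these genes array 1 lay lower than array 2, and the difference between the arrays was called for Usp26, Nlrp9b and Tcp11x2 (adjusted p = 8.6e-06, 3.3e-05 and 0.00806) but not for Nxf3 (adjusted p = 0.0900). Without wild-type replicate 1 the array 2 calls of Usp26, Nlrp9b and Tcp11x2 were lost (adjusted p = 0.0559, 0.132 and 0.196), and without wild-type replicate 2 that of Usp26 was (adjusted p = 0.0551).

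Wnt8a, a Wnt ligand of the early embryo, was at 7.96 and 8.05 in wild type and at 6.89 and 6.90 in knockout, a fall of 1.12 ± 0.21 and of 1.10 ± 0.21 (adjusted p = 4.35e-04 and 0.0284). Krtdap, a keratinocyte differentiation protein, was at 5.70 and 5.51 in wild type and at 4.51 and 4.52 in knockout (adjusted p = 1.84e-04 and 0.0124). Ephx3, an epoxide hydrolase, was at 7.32 and 7.17 in wild type and at 6.33 and 5.94 in knockout (adjusted p = 4.94e-04 and 9.2e-04). Wnt8a and Krtdap fell by nearly equal amounts in both knockout arrays, and Ephx3 lay lowest in array 2. Pcsk1, a prohormone convertase, was at 6.88 and 6.83 in wild type and at 5.77 and 5.99 in knockout (adjusted p = 7.75e-06 and 0.00789). Actc1, cardiac α-actin, was at 9.86 and 9.81 in wild type and at 9.14 and 8.67 in knockout (adjusted p = 4.29e-04 and 9.5e-05). Without wild-type replicate 1 the array 2 calls of Wnt8a, Krtdap and Pcsk1 were lost (adjusted p = 0.15, 0.174 and 0.0887), and without wild-type replicate 2 that of Wnt8a was (adjusted p = 0.105).

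Genes of innate immunity were also among those lower in both arrays. Cxcl10, an interferon-induced chemokine, was at 7.78 and 7.82 in wild type and at 7.10 and 6.62 in knockout (adjusted p = 0.00958 and 0.00719). Tlr3, a receptor for double-stranded RNA, was at 6.04 and 5.93 in wild type and at 5.47 and 5.16 in knockout (adjusted p = 0.00917 and 0.00832). Gbp7, a guanylate-binding protein, was at 6.94 and 7.08 in wild type and at 6.58 and 5.95 in knockout (adjusted p = 0.0497 and 0.00272), and Parp14 fell by 0.60 and by 0.68. Without wild-type replicate 1, Cxcl10 lost its call in array 2 (adjusted p = 0.0559), Gbp7 in array 1 (adjusted p = 0.0633), and Tlr3 and Parp14 in both, with adjusted p from 0.0578 to 0.528. Without wild-type replicate 2, Gbp7 lost its call in array 1 (adjusted p = 0.194). In a fit of the 4 ES arrays alone, Gbp7, Tlr3 and Parp14 lost their calls in array 2. Parp14 also lost its array 2 call under quantile normalization and median centring. These genes of innate immunity were picked out after their values were seen. Of the 15 measured genes in a list of interferon-stimulated genes, 0 were called in array 2, and 2 rose and 1 fell in array 1.

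The remaining shared genes lower in both arrays were Trpa1, Mcts1, Smndc1 and Nipal2, and in array 2 all 4 lost their calls without wild-type replicate 1 (adjusted p = 0.165, 0.497, 0.382 and 0.367). Without wild-type replicate 2, Trpa1 and Nipal2 lost theirs too (adjusted p = 0.132 and 0.101), and without wild-type replicate 1 the fall of Smndc1 in array 1 was 0.36 and not called (adjusted p = 0.1). Over the 25 shared genes the difference ran from -2.52 to -0.43 in array 1, with a median of -0.78, and from -1.95 to -0.53 in array 2, with a median of -1.06. In all 25 both knockout arrays lay below both wild-type arrays, as did 16.9% of all genes tested. These values come from the contrasts that chose the genes. In a fit of the 4 ES arrays alone, Usp26, Nlrp9b, Tcp11x2, Wnt8a, Krtdap, Pcsk1, Trpa1, Mcts1, Smndc1 and Nipal2 lost their array 2 calls. Smndc1 lost its array 1 call there too. The fall was larger in array 1 for 11 genes and in array 2 for 14, and 10 genes fell by amounts within 0.25 of each other. Of the 25 genes, 4 lay on the X chromosome, where 3.72% of all measured genes lie. The gene that was higher in both arrays, Gm13092, was dim, at 3.62 and 3.72 in wild type and at 4.27 and 4.48 in knockout (adjusted p = 0.0135 and 0.0485). Its call in array 2 was lost under quantile normalization, under median centring and without either wild-type array (adjusted p = 0.383 and 0.105), and its call in array 1 without wild-type replicate 1 (adjusted p = 0.0693).

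**Figure D3:**
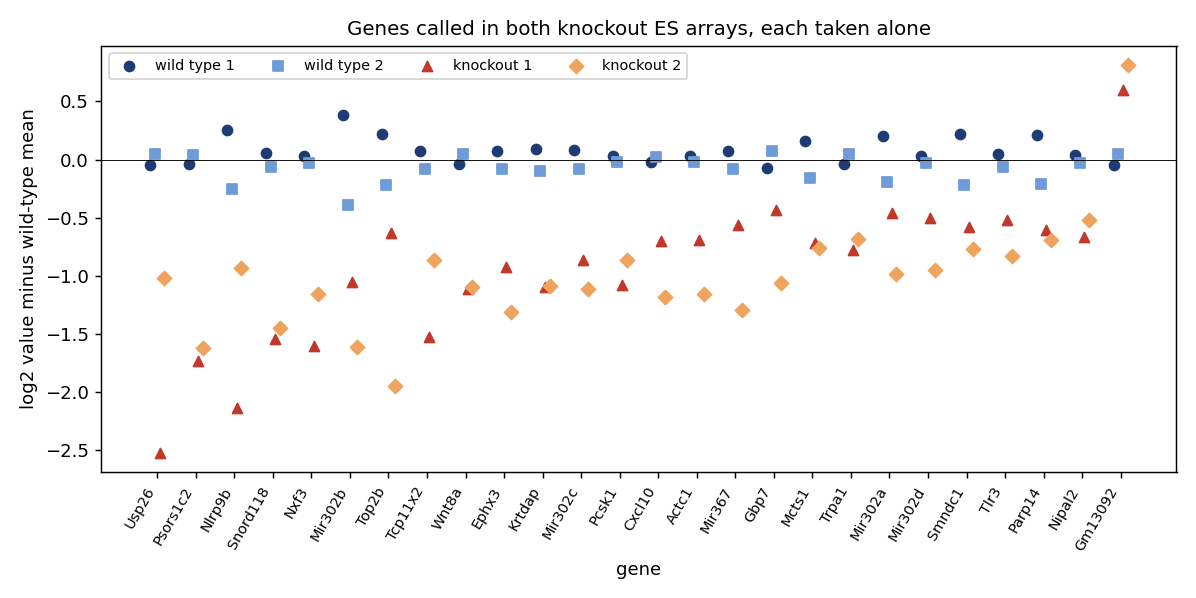
Log2 value minus the wild-type mean for the 26 genes called in both knockout arrays, each taken alone, in each of the 4 ES arrays. Both knockout arrays lie below both wild-type arrays for 25 genes and above them for Gm13092, and the fall is larger in array 1 for 11 genes and in array 2 for 14.

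Promoters were read for shared genes with an entry in the RefSeq table, which 14 of the 25 had, and the 4 entries ranked highest by the smaller of their 2 falls were searched on both strands. Each promoter is 300 bases long, with 250 bases before the start of the gene and 50 after it. The promoters of Psors1c2 and Krtdap are shown because both genes fell by almost the same amount in the 2 knockout arrays, and capitals mark matches to TATAAA and CCAAT.
Psors1c2, chr17:35532951-35533250 (GRCm38.p6, plus strand): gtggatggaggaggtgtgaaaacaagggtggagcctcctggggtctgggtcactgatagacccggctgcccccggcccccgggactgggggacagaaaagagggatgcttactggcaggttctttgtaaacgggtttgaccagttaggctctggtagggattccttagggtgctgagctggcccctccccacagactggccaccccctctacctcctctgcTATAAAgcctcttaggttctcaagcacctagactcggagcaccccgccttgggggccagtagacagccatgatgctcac
Krtdap, chr7:30787655-30787954 (GRCm38.p6, plus strand): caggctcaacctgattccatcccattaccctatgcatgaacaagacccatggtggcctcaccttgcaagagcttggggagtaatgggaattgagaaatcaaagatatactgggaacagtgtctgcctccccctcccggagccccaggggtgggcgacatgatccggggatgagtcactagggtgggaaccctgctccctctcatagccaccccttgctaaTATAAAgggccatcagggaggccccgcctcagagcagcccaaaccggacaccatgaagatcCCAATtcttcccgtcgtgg
TATAAA was found once in the promoters of Psors1c2, Krtdap and Nlrp9b and not in that of Usp26, and 13.6% of 32851 promoters of this length held it. CCAAT was found 1 time in Krtdap and 2 times in Usp26, and 37.4% of promoters held it. CACGTG and GGGCGG were found in none of the 4 and in 7.2% and 35.7% of promoters. The dinucleotide CG occurred 6, 7, 5 and 2 times in Psors1c2, Krtdap, Usp26 and Nlrp9b, against a median of 7.0. A match describes the letters and not a bound site.

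The 44 genes called in the average and in array 1 but not in array 2 were mostly lower. Smpdl3b, a lipid phosphodiesterase, was at 8.57 and 8.60 in wild type and at 6.75 and 8.09 in knockout. Olfr307, an olfactory receptor gene, was at 6.31 and 6.32 in wild type and at 4.30 and 5.55 in knockout. Both were lower in each knockout array, with array 1 far below array 2, and array 2 did not pass the test by itself (adjusted p = 0.234 and 0.174).

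Among the genes higher in the average, Pcp4l1 was at 5.84 and 5.64 in wild type and at 7.40 and 6.33 in knockout. Kcnmb4, a potassium channel subunit, was at 5.43 and 5.38 in wild type and at 7.22 and 5.80 in knockout. Gad2, an enzyme that makes GABA, was at 4.81 and 4.96 in wild type and at 5.85 and 5.39 in knockout. Irx3, C1qc, Tfec, Gas1, Plekha6 and Tmem178 were likewise higher in both arrays and called in array 1 alone (adjusted p in array 2 from 0.251 to 0.498). The averaged calls of Pcp4l1, Kcnmb4 and Tfec lay at the threshold (limma adjusted p = 0.05 after rounding, 0.0474 and 0.049). In 12 alternative settings the averaged call held in 3 for Pcp4l1 and in 4 each for Kcnmb4, Irx3, C1qc and Tmem178. All of these lost it under quantile normalization and with a filter on dim genes. Gas1 kept it in 6 settings, and Gad2 and Plekha6 in 7. Of the 70 calls, the difference was larger in array 1 for 52 and in array 2 for 18.

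The list counts of array 1 here and in the paragraphs below are to be set beside its shares over all genes, 14.1% higher and 11% lower. In array 2 the share of all genes called, given above, was so small that a short list would hold about 0 calls in any case. A count of 0 in array 2 therefore says little about a list. Knockout array 1 differed from the other 3 arrays in genes of pluripotency, which were lower. Of 26 core and naive pluripotency genes measured, 19 were called lower and 1 higher in array 1, against 11% and 14.1% of all genes, and 0 were called in array 2. The median difference was -1.12 in array 1 and 0.07 in array 2, against -0.01 and 0.00 over all genes. Dnmt3l, a cofactor of de novo DNA methylation, was at 10.07 and 10.06 in wild type, 7.28 in array 1 and 10.10 in array 2 (adjusted p = 1.12e-10 and 0.991). Zfp42 (Rex1), a marker of the naive state, was at 9.27 and 8.42 in wild type, 6.55 in array 1 and 8.58 in array 2. Fgf4, the growth factor made by ES cells, was at 10.21 and 10.36 in wild type, 8.08 in array 1 and 10.42 in array 2.

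The central factors fell less in array 1. Nanog was at 11.38 and 11.40 in wild type, 10.54 in array 1 and 11.46 in array 2 (adjusted p = 0.00459 and 0.98), and Pou5f1 at 11.22, 11.33, 10.48 and 11.34 in the same order (adjusted p = 0.0156 and 0.981). Sox2 was at 10.87 and 10.73 in wild type, 10.04 in array 1 and 10.87 in array 2 and was not called (adjusted p = 0.0609 and 0.985). All 3 genes that define the state stayed bright in array 1, at 10.04 or above. Gdf3, Nr5a2, Dppa2, Dppa4, Fbxo15, Nr0b1, Tfcp2l1, Esrrb, Klf2 and Tcl1 fell by 1.12 to 1.75 in array 1. Tbx3 went the other way, from 8.68 and 8.48 to 9.80.

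Markers of early mesoderm were higher in array 1. Of 19 genes measured, 13 were called higher and 1, Cdx4, lower, and the median difference was 1.0, against -0.06 in array 2, where Mixl1 and Wnt3 were called lower. Lhx1, a transcription factor of the organizer and mesoderm, was at 5.71 and 5.97 in wild type, 9.11 in array 1 and 5.37 in array 2. Eomes, a T-box factor of the primitive streak, was at 7.26 and 6.89 in wild type, 9.64 in array 1 and 6.35 in array 2. Foxf1 of lateral mesoderm was at 7.12 and 6.92 in wild type, 9.67 in array 1 and 6.89 in array 2. Array 1 stood above the other 3 arrays in each, and array 2 was at or below the lower wild-type array. Gsc, Hand1, Mesp1, Kdr, Pdgfra and Snai1 were also higher in array 1, by 1.0 to 2.40.

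Endoderm markers were higher in array 1 as well, with 11 of 24 called higher and 1, Cubn, lower, and a median of 0.97 in array 1 and 0.10 in array 2. Cer1, a secreted Nodal and BMP antagonist, was at 4.56 and 4.75 in wild type, 8.14 in array 1 and 4.46 in array 2. Gata6, a regulator of primitive endoderm, was at 7.30 and 7.30 in wild type, 9.95 in array 1 and 7.53 in array 2. Sox17 was at 5.09 and 5.07 in wild type, 7.34 in array 1 and 5.05 in array 2. Gata4, Foxa1, Foxa2, Cxcr4 and Ttr rose by 1.44 to 2.15 in array 1, and 0 of the 24 genes were called in array 2.

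Mesenchymal and fibroblast genes had the largest median of the 30 lists in array 1, 1.48, against -0.29 in array 2. Of 25 genes measured, 18 were called higher in array 1 and 0 lower, and 0 were called in array 2. Postn (periostin), a matrix protein, was at 7.52 and 7.31 in wild type, 11.01 in array 1 and 6.76 in array 2. Lum (lumican) was at 3.41 and 3.35 in wild type, 6.39 in array 1 and 3.79 in array 2. The collagen genes Col1a1, Col1a2, Col3a1, Col5a1, Col5a2 and Col6a1 rose by 1.0 to 2.13 in array 1. In bulk RNA, more cells of a type and more RNA per cell cannot be told apart. The mean level of the list was 8.60 and 8.56 in wild type, 10.06 in array 1 and 8.32 in array 2, and its part in the other differences of array 1 was not tested.

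Genes of blood and vessels followed. Lyz2, the lysozyme of macrophages, was at 4.09 and 4.29 in wild type, 8.26 in array 1 and 4.10 in array 2, a rise of 4.08 ± 0.21 in array 1 (adjusted p = 5.09e-11). Of 16 microglia and macrophage genes, 9 were called higher and 2, Cd68 and Laptm5, lower in array 1 (median 0.81), including C1qb, C1qc, Fcer1g and Tyrobp. The embryonic globins Hba-x and Hbb-bh1 rose by 3.11 and 2.86 in array 1, from 6.15 and 6.37 to 9.37 and from 3.99 and 3.99 to 6.85. In a list of 8 erythroid genes, 5 were called higher and 0 lower, which became 3 higher and 1 lower under median centring. Of 15 endothelial and mural genes, 8 were higher, among them Cdh5, Emcn and Kdr, and 2, Pecam1 and Robo4, were lower. Array 2 had 0 calls in these 3 lists.

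Hox genes, which pattern the body axis, were higher in array 1 in every cluster. Of 37 measured, 29 were called higher and 0 lower in array 1, and 0 were called in array 2, with medians of 0.89 and 0.08. By cluster, 8 of 10 Hoxa, 6 of 9 Hoxb, 8 of 9 Hoxc and 7 of 9 Hoxd genes rose. Hoxc10 was at 5.03 and 5.02 in wild type, 7.20 in array 1 and 5.10 in array 2, and Hoxc8 at 6.24, 6.70, 8.60 and 6.54 in the same order. Under quantile normalization 26 of the 37 were called, and under median centring 27. Targets of retinoic acid overlapped with this list and counted 8 higher and 1 lower of 16, with Meis2 rising by 2.36 and Cyp26a1, an enzyme that degrades retinoic acid, by 2.03.

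Imprinted genes were higher in array 1, with 12 of 22 called higher and 2 lower (median 0.56, against -0.06 in array 2). Zim1 rose by 2.85, Plagl1 by 2.27, Dlk1 by 2.16 and Igf2 by 1.95, while Rian and Phlda2 fell. TGF-β, Nodal and BMP signalling genes moved in both directions in array 1, 9 higher and 5 lower of 22. Bmp2, Inhba and the TGF-β target Tgfbi rose by 2.10, 1.62 and 2.63, and Nodal, Lefty1 and Gdf3 fell by 1.36, 1.35 and 1.75. Array 2 had 0 calls in both lists.

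Germline genes were lower in array 1. Of 39 measured, 20 were called lower and 1, Tdrkh, higher, with a median of -0.44, against 0.02 in array 2. Mael, a protein of the piRNA pathway, was at 8.17 and 8.08 in wild type, 5.57 in array 1 and 8.63 in array 2. Ddx4, Dazl, Mov10l1, Piwil2, Sycp1, Sycp3 and Hormad1, which act in germ cells and meiosis, fell by 0.58 to 1.21 in array 1. In array 2, 3 of the 39 were called, all lower, and they were Psors1c2, Nxf3 and Usp26, which are also among the 20 and were put in the list with their values known. Without these 3 genes, 17 of 36 were lower in array 1 (median -0.36) and 0 were called in array 2. Of 12 genes of the 2-cell-like state 6 were lower in array 1 and 0 higher.

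Neuronal genes were lower in array 1, with 10 of 20 called lower and 1, Gad2, higher (median -0.41, against 0.03 in array 2). Ina, an intermediate filament, was at 10.50 and 10.49 in wild type, 9.46 in array 1 and 10.48 in array 2. Stmn2, Nefh, Chga and Syt1 fell by 0.98 to 1.16. Genes of the neural progenitor, in contrast, counted 6 higher and 0 lower of 20, with Fabp7, Zic1 and Msi1 rising by 2.34, 1.38 and 0.94. Array 2 had 0 calls in either list.

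**Figure D4:**
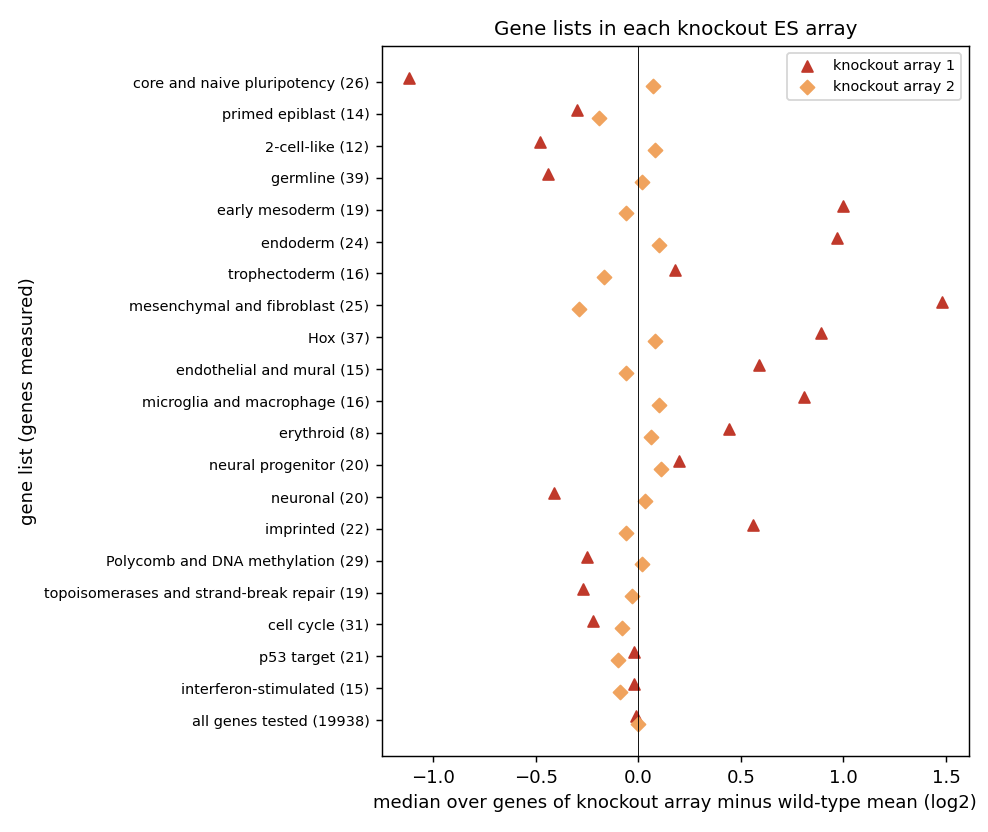
Median difference from the wild-type mean over the genes of each list, in log2 units, for knockout array 1 (triangles) and knockout array 2 (diamonds), with the number of genes measured in parentheses. Array 1 ranges from -1.12 for pluripotency genes to 1.48 for mesenchymal genes, while array 2 stays between -0.29 and 0.11 in the lists shown.

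Of 29 Polycomb and DNA methylation genes, 13 were lower and 3 higher in array 1, with Tet1, Tet2 and Cbx7 falling by 1.19, 1.12 and 1.14 and Tet3 and Bmi1 rising by 0.78 and 0.69. Of 19 topoisomerase and strand-break repair genes, 7 were lower and 0 higher in array 1, namely Top2b, Atm, Mre11a, Prkdc, Rad50, Xrcc5 and Xrcc6. Apart from Top2b these fell by 0.41 to 0.72, and Top2b was the one called in array 2. Of 6 neighbours of Top2b, Ngly1 and Rarb were higher in array 1, by 0.66 and 1.13, and 0 were called in array 2.

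Of 31 cell cycle genes, 1 was called higher (3.23%) and 4 lower (12.9%) in array 1, against 14.1% and 11% of all genes. Ccnd2, cyclin D2, was at 9.61 and 9.64 in wild type, 11.19 in array 1 and 9.38 in array 2, and Ccne1, cyclin E1, fell by 0.99 in array 1. The p53 targets counted 3 higher (14.3%) and 1 lower (4.76%) of 21, the higher share close to that of all genes. Genes of the ATF4 response counted 2 higher and 6 lower of 21, with Chac1 falling by 1.54, and hypoxia and glycolysis genes 8 higher and 1 lower of 23, with Adm rising by 1.65. Immediate early genes counted 4 higher of 15 and cholesterol synthesis genes 1 of 16. Trophectoderm genes counted 7 higher and 2 lower of 16. Array 2 had 0 calls in these 7 lists.

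Of 2298 genes that span over 100 kb, 607 (26.4%) were higher in array 1, against 14.1% of all genes, and 253 (11%) lower, the same share as over all genes (median 0.10). In array 2, 1 was higher and 6 lower (0.305%, against 0.296% of all genes, median -0.02). Under median centring the median difference of the long genes in array 1 was 0.02, against -0.09 over all genes. The Y-linked gene Eif2s3y was at 8.68 and 8.47 in wild type and at 8.35 and 8.42 in knockout, and Uty at 7.88, 7.76, 7.56 and 7.77, so the 4 arrays were alike in both. Of the dim Y-linked genes, Zfy1 was at 4.28 and 4.07 in wild type, 3.65 in array 1 and 4.11 in array 2. Kdm5d went the other way in array 1, at 4.50, 4.33, 4.94 and 4.35 in the same order. Xist was at 5.80 and 5.50 in wild type, 6.20 in array 1 and 5.56 in array 2.

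**Figure D5:**
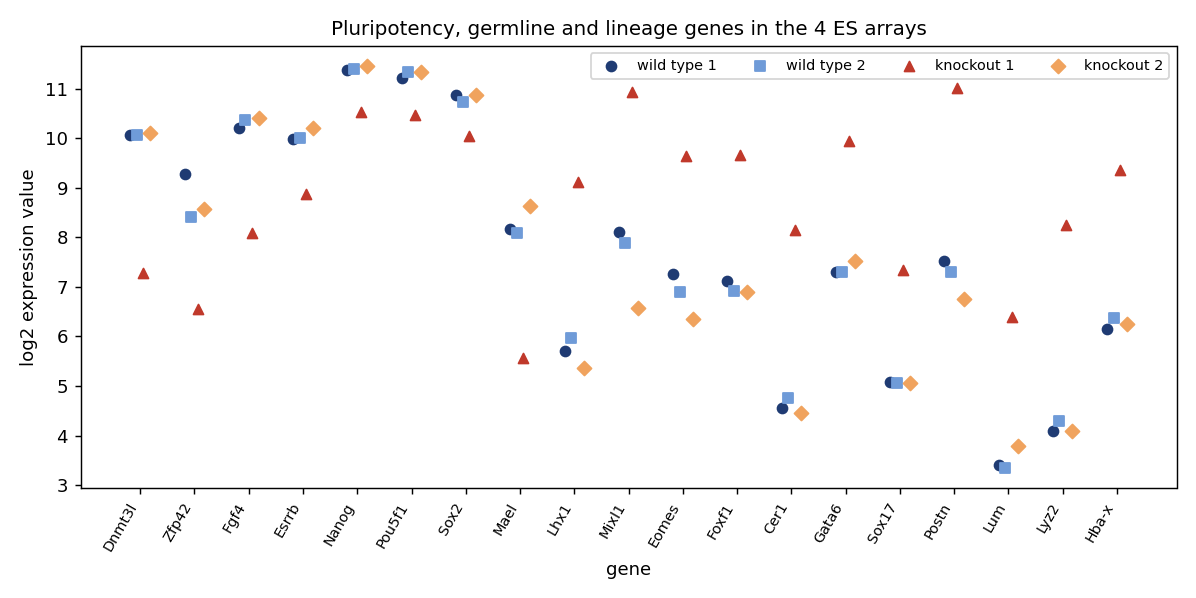
Log2 expression values of pluripotency, germline and lineage genes in each of the 4 ES arrays. Knockout array 1 (triangles) lies below the other arrays from Dnmt3l to Mael and above them from Lhx1 to Hba-x. Knockout array 2 (diamonds) lies nearer to the wild-type arrays at most genes. It lies below both of them at Mixl1, at 6.57, and also at genes such as Lhx1, Eomes and Postn.

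A set of 18 genes was called in both knockout arrays in opposite directions, and each was higher in array 1 and lower in array 2. Mixl1, a homeobox gene of the primitive streak, was at 8.11 and 7.89 in wild type, 10.94 in array 1 and 6.57 in array 2, a rise of 2.94 ± 0.20 and a fall of 1.43 ± 0.20 (adjusted p = 1.48e-09 and 0.00169). Ppbp, a platelet chemokine, was at 6.96 and 6.51 in wild type, 9.67 in array 1 and 5.81 in array 2 (adjusted p = 4.4e-10 and 0.0369). Fgf5, a marker of primed epiblast, was at 8.37 in both wild-type arrays, 9.75 in array 1 and 7.52 in array 2 (adjusted p = 3.76e-06 and 0.0368). None of the 18 was called in the average, where Mixl1 had a difference of 0.76 ± 0.70 (adjusted p = 0.66) and Ppbp one of 1.0 (adjusted p = 0.463).

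The others included Ankrd1, Cdh2 (N-cadherin), Kcnmb1, Hspb6, Pde10a and Tshz1. Cdh2 was at 9.54 and 9.60 in wild type, 10.91 in array 1 and 9.06 in array 2. Ankrd1 was at 7.64 and 7.46 in wild type, 9.02 in array 1 and 6.54 in array 2. Most of the 18 lost their array 2 call without wild-type replicate 1 and in a fit of the 4 ES arrays alone. Few calls were left in array 2 in those fits, and most of them were shared with array 1 in the same direction. Most of these genes lay near the threshold in array 2, where the adjusted p of the 18 ran from 0.00169 to 0.0485. The primed epiblast list as a whole was mixed in array 1, with 3 of 14 higher and 6 lower, and Fgf5 was its only call in array 2.

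Changes seen in array 2 and not in array 1 were few. The number of calls in array 2 fell strongly without wild-type replicate 1 and in a fit of the 4 ES arrays alone. Most calls left there were shared with array 1 in the same direction. Most genes named below therefore did not keep their array 2 call in those fits. Which of the lower ones did was not examined. Of its 59 calls, 15 were not called in array 1, and 13 of those also differed between the knockout arrays, 11 lower and 2 higher. Pkia, an inhibitor of protein kinase A, was at 7.65 and 7.28 in wild type, 7.46 in array 1 and 6.32 in array 2 (adjusted p = 0.996 and 0.00832). Alox15, a lipoxygenase, was at 8.17 and 7.97 in wild type, 8.48 in array 1 and 7.01 in array 2 (adjusted p = 0.138 and 0.0127). Wnt3, the Wnt ligand that starts the primitive streak, was at 8.30 and 8.06 in wild type, 8.17 in array 1 and 7.14 in array 2 (adjusted p = 0.978 and 0.0485). In each, array 1 did not pass the test and array 2 lay below both wild-type arrays.

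Irgm1, an interferon-induced GTPase, was at 8.55 and 8.49 in wild type, 8.60 in array 1 and 7.45 in array 2 (adjusted p = 0.863 and 0.0403). Ube2v2, Stard13, Tmem185a, Efnb2, Parp12, Il15ra and Bdh1 were the other lower genes, with falls of 0.49 to 0.96 in array 2. Psmb8 and Erap1, which act in antigen processing, were lower in array 2 by 0.85 and 1.0 without a called difference between the knockout arrays. The 2 higher genes were Lrrc31, from 6.76 and 6.72 in wild type to 7.46 in array 2, and Pak7, from 5.27 and 5.34 to 5.90. Both lost their call under median centring, in a fit of the 4 ES arrays alone and when all probe sets were tested. In a list of 13 Wnt targets, chosen with earlier results of these data known, the ligands Wnt8a and Wnt3 were called lower in array 2. The other 11 were not called. Wnt3 lay near the threshold, and Wnt8a lost its array 2 call when either wild-type array was left out.

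The knockout arrays were also compared with each other, which uses no wild-type ES array. This gave 4554 calls (22.8%), 2855 higher in array 1 (14.3%) and 1699 lower (8.52%). The genes called in array 1 against wild type and against array 2 in the same direction, and not called in array 2, were 2351 higher and 1450 lower. By the difference between the knockout arrays the higher ones were led by Postn, Lyz2, Igfbp5, Capn6, Fgf10, Lhx1, Cer1, Prdm6, Prelp, Nrp1, Cyp26a1 and Actg2. Igfbp5, a binding protein of insulin-like growth factors, was at 6.73 and 6.64 in wild type, 10.39 in array 1 and 6.41 in array 2. Fgf10, a growth factor of mesenchyme, was at 5.80 and 5.56 in wild type, 9.64 in array 1 and 5.86 in array 2.

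The lower ones were led by Mael, Dnmt3l, Accsl, Neurod1, Slc23a1, Gpa33, Slc9b1, Trap1a, Gm5662, 4930519F16Rik, Fgf4 and Ddx43. Neurod1, a proneural factor, was at 7.65 and 7.61 in wild type, 5.16 in array 1 and 7.79 in array 2. Gpa33, a surface glycoprotein, was at 10.41 and 10.53 in wild type, 7.98 in array 1 and 10.48 in array 2. Trap1a, an X-linked tumour rejection antigen gene, was at 8.62 and 8.50 in wild type, 5.95 in array 1 and 8.38 in array 2.

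The balance of directions in array 1 depended on the scaling. As deposited, 56.1% of its calls were higher, against 48.8% after quantile normalization (2755 higher and 2889 lower) and 42.9% after centring each array on its median (2335 and 3108). Between the knockout arrays the share was 62.7%, 50.0% and 47.4%. The medians of the lists named above kept their sign in array 1 under both scalings, except that of hypoxia and glycolysis genes, which was 0.09 as deposited and 0.00 after median centring.

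The difference between the knockout arrays was set beside the change that wild-type cells made from ES to NP cells, a comparison that shares no array with it. Of the 1699 genes lower in array 1 than in array 2, 1258 (74%) also fell from ES to NP cells and 77 (4.53%) rose, where 24.5% of all genes fell and 21.7% rose. Of the 2855 genes higher in array 1, 1277 (44.7%) rose from ES to NP cells and 369 (12.9%) fell. Across 19938 genes, which are not independent replicates, Pearson's r was 0.36 and Spearman's rho 0.33. The lists did not all follow that path. Of 26 pluripotency genes, 18 were lower in array 1 than in array 2 and 25 lower in NP than in ES cells. Of 37 Hox genes, 25 were higher in array 1 and 22 in NP cells. Of 25 mesenchymal genes, 19 were higher in array 1, while 12 were lower and 0 higher in NP cells.

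The knockout effect in ES cells was last compared with that at the later stages, which share no arrays with it. Knockout NP cells had 125 calls (0.627%, with 0.246% of genes lower), TN day 2 had 2284 (11.5%, with 5.97% lower) and TN day 6 had 2030 (10.2%, with 4.8% lower). Of the 25 genes lower in both ES knockout arrays, 2 were also called lower in knockout NP cells, Top2b and Actc1. Actc1 averaged 8.01 ± 0.06 (SD, n = 2) in wild-type and 7.19 ± 0.01 (SD, n = 2) in knockout NP cells (adjusted p = 0.00228). At TN day 2 the call of Top2b was the 1 shared, and at TN day 6 those of Top2b and Nxf3 were the 2. Nxf3 averaged 6.66 ± 0.08 (SD, n = 3) in wild-type and 4.06 ± 0.22 (SD, n = 3) in knockout cells at TN day 6 (adjusted p = 1.07e-11). The medians of the 25 genes at the 3 later stages were -0.05, 0.02 and 0.02.

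Most shared genes were dim at the later stages in both genotypes. Mir302c averaged 3.31 ± 0.04 (SD, n = 2) in wild-type and 3.45 ± 0.01 (SD, n = 2) in knockout NP cells, against 8.32 ± 0.11 (SD, n = 2) in wild-type ES cells. Psors1c2 averaged 4.58 ± 0.28 (SD, n = 2) in wild-type and 4.73 ± 0.05 (SD, n = 2) in knockout NP cells. A knockout effect that differed between ES and NP cells, tested as an interaction, was called for 51 genes (0.256%), 19 in the higher and 32 in the lower direction. Without knockout ES replicate 1 the count was 137 and without knockout ES replicate 2 it was 3172.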

How the data were processed

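The deposited table held log2 expression values, which per the submitters' processing notes the authors made with oligo 1.14.0. Background correction, summarization, log base and genome build are not given in any source used here. Base 2 was read from the range of 1.96 to 13.99. Of 35556 probe sets, 21789 carried 1 gene symbol; for 999 genes with several, the brightest was kept, giving 19938 genes. The number of arrays limits the precision. No further normalization was applied.

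Group means of all 28 arrays were fitted with limma 3.58.1 in R 4.3.3 (lmFit, eBayes). A fit of 12 groups gave the averaged comparison; a fit of 13 groups, with each knockout ES array a group of its own, gave the single-array contrasts, in which the lone array is assumed to vary like the other groups. P-values were two-sided and given a Benjamini-Hochberg adjustment over 19938 genes, with 0.05 as threshold. Median standard errors were 0.14 for the averaged, 0.16 for a single-array and 0.18 for the array 1 minus array 2 contrast. The fits were also run on simulated data in which the knockout ES arrays varied like the other groups, unlike the knockout pair here. Alternatives were scalings, a filter on dim genes, other summaries of probe sets, other variance priors, array weights, fewer arrays, leaving out each array and a replicate block; fits with no shared array were added after seeing the data. Genes were named by rank of difference among calls in the average, in both arrays, in array 1 and in array 2, up to 12 a direction, and from 30 gene lists (543 of 595 symbols measured). Members and lists were chosen with earlier results of these data known. Sequences are from RefSeq (GRCm38.p6), which held 272 of the 297 microRNA genes. Probe sets without a single symbol were only counted.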

Additional observations from a re-analysis of the deposited data

Results flagged for a closer look

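Of the genes named by rank in the averaged comparison or in both arrays, 7 had a knockout effect that differed between ES and NP cells by the interaction test of limma. The difference of effects, ES minus NP, was 1.28 for Gad2 (0.73 in ES and -0.55 in NP cells, adjusted p = 0.0027). It was -1.82 for Psors1c2 (-1.67 and 0.15, adjusted p = 1.57e-04), -1.43 for Snord118 (-1.50 and -0.07, adjusted p = 0.00712) and -1.23 for Tcp11x2 (-1.19 and 0.04, adjusted p = 0.0169). For Ephx3 it was -1.10 (adjusted p = 0.0297), for Pcsk1 -1.10 (adjusted p = 0.00402) and for Mir302c -1.13 (adjusted p = 0.00504). These genes were named for their effect in ES cells, which is part of this test, so the test is not independent of the choice. Mir302c, Tcp11x2, Ephx3 and Psors1c2 were dim in wild-type NP cells, at means of 3.31, 3.24, 4.52 and 4.58, where a fall could hardly be seen.

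Outside the named genes, probe sets that carry no symbol or several also gave calls. Of 13767 such probe sets, 11 were lower and 1 higher in the average of the knockout ES arrays, and 1 was called lower in both arrays taken alone.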

How the results depend on the processing

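The counts for knockout array 1 and for array 1 against array 2 stayed within 1.5 times under every alternative run. The averaged count of 70 became 21 with a filter on dim genes and 0 both with array weights and with a fit of the 4 ES arrays, against 2995 genes at an unadjusted p under 0.05 in limma's fit of all arrays, and ran from 5 to 5018 when each ES array was left out. The count of 59 for knockout array 2 became 10 with only the 4 ES arrays and 33 over all probe sets, and 13 to 39 without a wild-type array. The count of 26 for both became 11 with the filter, 8 with only the 4 ES arrays, 10 to 25 without a wild-type array, and 9 and 16 with no shared array. Of those 26, 9 and 14 were called under the 2 pairings. The interaction count of 51 became 87 with a trended, robust prior, 0 with only the 8 ES and NP arrays and 17 to 3172 in leave-one-out fits. The causes were not tested. Of the recomputed values of named genes that were called as reported, 694 kept their call, 239 lost it and 0 reversed. Under the filter, which drops genes below the 25th percentile of mean level over all arrays, 17 of the 26 shared genes were not tested, the microRNA genes, Psors1c2, Snord118 and Nxf3 among them.

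The ES samples share replicate numbers, but the labels do not say that a number marks a pair, and the deviations of the 2 pairs correlated at 0.04. With a replicate block the averaged count was 54 and the interaction count 45.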
